A study of Mus musculus with 24 samples.

Results

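The results below concern 10 mouse genes of glycolysis: Hk1, Hk2, Pfkl, Pfkp, Aldoa, Pgk1, Pgam1, Pgam2, Pkm and Ldha. They were taken as every array probe whose accession, without its version, maps to 1 of these symbols among the mouse RefSeq genes of assembly GRCm38.p6. The array reaches 22911 symbols, and 15 probes met this rule. With targets that have no symbol it reaches 45616, and counts and shares of all genes below include those targets. Where a gene had several probes, the probe that was brightest over the arrays stands for it in every tissue. RNA came from male C57BL/6J mice, from white adipose tissue (WAT), kidney, lung and liver, of animals aged 10 weeks (10W, young) or 90 weeks (90W, aged), with 3 mice at each age for each tissue. Each of the 24 samples was hybridised to its own 1-colour Agilent array. The young livers carry replicate numbers 1, 2 and 3, and the aged livers 1, 2 and 4. Each tissue was run on its own slide with both ages on it, so tissue and slide cannot be told apart.

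Glycolysis turns glucose into pyruvate in the cytosol and yields ATP and NADH on the way. Hexokinases trap glucose in the cell, phosphofructokinase commits it to the pathway, aldolase splits it, phosphoglycerate kinase and pyruvate kinase make ATP, phosphoglycerate mutase links these steps, and lactate dehydrogenase turns pyruvate into lactate. Liver and kidney can also run the pathway backwards and make glucose. The study behind these arrays concerns the binding of PGAM1 to the kinase Chk1 in senescent cells, and the arrays compare young with aged organs.

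Many genes of glycolysis are known targets of the hypoxia-inducible factors, which bind DNA at the core RCGTG, that is ACGTG or GCGTG. The 250 bases upstream of each RefSeq transcript start (GRCm38.p6) were read for these cores on both strands. Over 32851 such windows of the mouse genome, ACGTG lies in 16.6% and GCGTG in 28.2%, and 38.6% hold at least 1 of them. Of the 10 members, 9 hold a core in at least 1 window, and 11 of their 15 starts do. The windows of Aldoa starts 2 and 3 overlap and share the same core, which is counted at both. The 38.6% refers to single windows, whereas a member can have up to 3. It was not matched for G or C content. Windows of 5 members are printed on the gene's strand: the 4 with ACGTG at the first listed start, and Pgam2, whose window carries a different site. ACGTG also lies at later starts of Aldoa and Pkm, which are not printed. Capitals mark the sites. In the Pgam1 window (chr19:41911621-41911870, plus strand, 64% G or C) the cores begin 175, 114 and 88 bases before the start:

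Pgam1: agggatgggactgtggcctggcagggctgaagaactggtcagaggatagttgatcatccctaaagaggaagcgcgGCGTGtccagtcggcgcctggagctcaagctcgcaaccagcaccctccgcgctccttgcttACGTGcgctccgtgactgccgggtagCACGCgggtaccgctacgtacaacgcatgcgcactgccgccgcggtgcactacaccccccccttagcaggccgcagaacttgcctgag

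The window of Pgk1 (chrX:106186850-106187099, plus strand) holds 2 ACGTG cores, 150 and 131 bases before the start:

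Pgk1: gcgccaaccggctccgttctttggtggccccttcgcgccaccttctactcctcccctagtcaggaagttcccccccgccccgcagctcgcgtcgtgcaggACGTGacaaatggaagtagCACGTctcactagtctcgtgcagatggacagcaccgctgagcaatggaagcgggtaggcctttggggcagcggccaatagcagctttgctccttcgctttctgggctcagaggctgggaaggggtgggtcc

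The first of 2 Ldha starts (chr7:46845554-46845803, plus strand) has 5 ACGTG cores over both strands, and CACGTG, which reads the same on both strands, accounts for 4 of them:

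Ldha: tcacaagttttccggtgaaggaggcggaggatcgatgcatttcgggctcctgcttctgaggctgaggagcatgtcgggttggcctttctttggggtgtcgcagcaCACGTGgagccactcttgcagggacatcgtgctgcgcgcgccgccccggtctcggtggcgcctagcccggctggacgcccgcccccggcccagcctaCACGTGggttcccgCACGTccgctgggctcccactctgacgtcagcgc

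The window of Hk2 (chr6:82774455-82774704, minus strand) holds 2 ACGTG cores, 226 and 52 bases before the start:

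Hk2: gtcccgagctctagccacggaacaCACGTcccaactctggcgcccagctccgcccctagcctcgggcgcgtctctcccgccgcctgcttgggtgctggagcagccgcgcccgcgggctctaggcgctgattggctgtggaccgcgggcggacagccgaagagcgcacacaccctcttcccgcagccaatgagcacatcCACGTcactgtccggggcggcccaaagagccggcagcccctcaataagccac

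The Pgam2 window (chr11:5803797-5804046, minus strand) holds neither core. It has 1 copy of CTATTTTTA, a form of the site of the muscle factor MEF2, which lies in 0.454% of the windows (149 of 32851):

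Pgam2: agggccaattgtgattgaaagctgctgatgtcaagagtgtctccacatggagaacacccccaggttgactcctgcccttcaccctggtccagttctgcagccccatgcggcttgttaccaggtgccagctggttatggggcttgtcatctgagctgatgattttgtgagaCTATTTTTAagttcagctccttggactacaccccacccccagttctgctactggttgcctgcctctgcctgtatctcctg

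Levels below are log2 signals relative to the 75th percentile of the same array, so a gene at level 0 is as bright as that percentile. Between 58.6% and 71.1% of the probes were well above background on an array, and the 10 members were tested in every tissue. The age difference is 90W minus 10W within a tissue. It was tested with limma, and p was adjusted over all genes tested in that tissue. A gene is said to have risen or fallen where the adjusted p was under 0.05. The aged liver and kidney arrays were brighter before scaling, with a 75th percentile of 340 to 448 units in aged liver beside 259 to 307 in young liver, and of 788 to 862 in aged kidney beside 460 to 618 in young kidney. The choice of scaling therefore matters in these tissues. With the spike-in spots as the reference, the median age change of all genes moved by -0.54 log2 in liver, -0.30 in lung, 0.20 in kidney and 0.24 in WAT. With each spike-in probe centred on its own mean first, an alternative chosen after the data were seen, it moved by 0.10 in liver and 0.39 in kidney. Centring on the median gene moved it by -0.11 in kidney.

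Some libraries held RNA of other cells. Young WAT 1 had a summed level of epididymis and testis genes of 439 (1 is the 75th percentile), against 0.180 to 4.76 in the other WAT arrays. Aged WAT 3 had a summed neutrophil level of 892, against 4.50 to 93.6 in the others. Aged liver 2 had a neutrophil level of 1377, with S100a9 the most abundant, against 2.05 to 26.6 in the other livers. Aged lung 2 had a neutrophil level of 1486, against 52.8 to 312 in the other lungs. Aged lung 1 had a hepatocyte level of 323, carried by Alb and Apoa2, against 8.78 to 26.3. These 5 arrays were kept, and leaving them out together was added as an alternative after they had been seen. In lung this leaves 1 aged array.

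The number of the 10 genes that changed with age differed between organs, as it did for genes at large. In aged kidney most members were lower, though the sign of Pkm, Hk1 and Pfkl there turned under other scalings, in aged liver most of those that changed were higher, and lung and WAT had no member past the threshold. In liver 5 of the 10 rose and 1 fell, against 10.6% and 16.8% of the 27869 genes tested (27.4% in either direction). In kidney 1 rose and 6 fell, against 20.7% and 42.5% of 31485 genes (63.2% in either direction). In lung limma called 0 of the 10, against 2.7% of 30312 genes higher and 2.86% lower (5.57%). In WAT it also called 0 of the 10, against 1.99% of 30042 genes higher and 0.566% lower (2.56%). At unadjusted p under 0.05 the limma test gave 1 member in lung and 2 in WAT, each lower with age. The t-test gave 1 in lung and 1 in WAT, also lower. By limma 8148 of 30312 genes in lung and 5780 of 30042 in WAT had an unadjusted p under 0.05. The median age change of the members was 0.56 log2 in liver and -0.45 in kidney, beside -0.20 and -0.23 for all genes. In lung it was 0.08 beside -0.08, and in WAT -0.13 beside -0.05. In liver 6 of the 10 were called against 27.4% of all genes, but 1 against 11.1% with the t-test and 2 against 16.6% with the spike-ins. A count of 0 in lung or WAT does not show that levels were equal.

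A simpler reading asks whether the 3 young and the 3 aged values overlap at all. In kidney they did not for any of the 10 genes, with 8 lower in aged kidney and 2 higher, where 47.5% of genes were lower and 23.2% higher without overlap (70.7% together). In liver 6 were higher and 3 lower without overlap, against 16.9% and 32.9% (49.8%). In lung 1 was lower, against 24.2% lower and 11.6% higher (35.8%). In WAT 3 were lower, against 15% lower and 13.7% higher (28.7%).

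Those splits move with the scaling. In kidney 32.7% of the called genes were higher, and 76.9% with spike-in scaling or 67.9% with the centred spike-ins. In liver the share was 38.6%, and 23.2% or 72.1% with these scalings. In lung it was 48.5% and became 16.4% with the spike-ins, and in WAT 77.9% became 93.6%. Among the members, 1 was called lower and 1 higher in kidney with the spike-ins (16% of all genes in either direction), and 4 lower and 2 higher with the centred spike-ins (43.3%). In liver 1 was called higher and 1 lower with the spike-ins (16.6% of all genes), and 4 higher with the centred spike-ins (12.5%). The t-test gave 1 liver member higher and 0 lower after adjustment (11.1% of all genes). Quantile scaling gave 3 higher and 3 lower in kidney (24.7% and 37.5% of all genes). Without young liver 1, 2 or 3 there were 3 higher in liver, and without any 1 array other than young liver 3 there were 0 lower. In kidney 2 were higher without aged kidney 1. The all-gene counts moved too: in liver 4685 were lower, and 1185 without young liver 1, 977 without young liver 2, 2589 without aged liver 1 and 2651 without aged liver 2. In liver 2947 were higher, and 1781 and 1508 without young liver 1 or 2. In lung 819 were higher and 868 lower, and 1 and 1 without young lung 1, 16 and 8 without young lung 2, 133 and 73 without young lung 3, and 542 and 488 without aged lung 3. In WAT 598 were higher and 170 lower, and 208 and 33 without young WAT 2, 278 and 26 without young WAT 3, 271 and 25 without aged WAT 1, 206 and 38 without aged WAT 3, 313 higher without aged WAT 2 and 110 lower without young WAT 1.

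**Figure D1:**
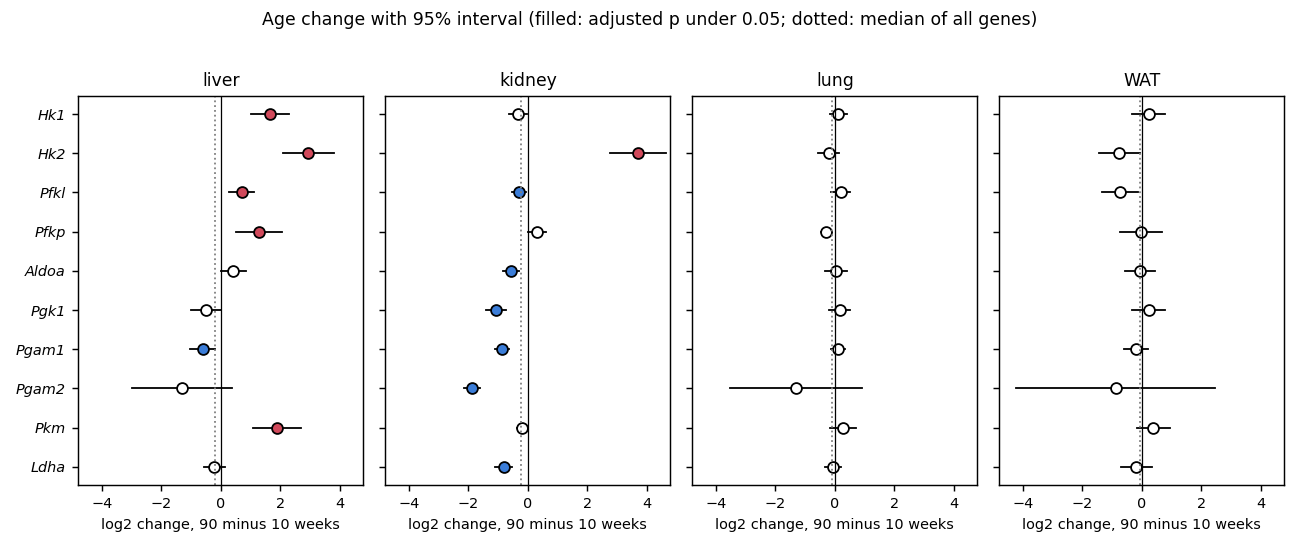
Change of the 10 glycolysis genes with age in 4 tissues, in log2 with the 95% interval. Filled marks have an adjusted p under 0.05 by limma. The sign of Pkm, Hk1 and Pfkl in kidney and of Ldha and Aldoa in liver turns under at least 1 other scaling, as does that of 6 members in lung and 4 in WAT.

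Hexokinase catalyses the first step. Hk2, the insulin-regulated form of muscle and fat, was scarce in young liver and kidney and rose strongly in both. In liver the young levels were -2.36, -3.25 and -2.66 and the aged levels -0.29, 0.91 and -0.06. Every aged liver was above every young one, and aged liver 2 was the highest. The change was 2.94 log2 (95% interval 2.08 to 3.81, limma adjusted p 0.00394, 7.68-fold). In kidney Hk2 stood at -5.28, -5.19 and -3.89 in the young and -0.79, -1.13 and -1.29 in the aged, with the second young array not well above background. The kidney groups were far apart, and the size of the fold rests on young values near background. The kidney change was 3.72 log2 (2.78 to 4.66, adjusted p 5.44e-04, 13.2-fold), and 2.03 log2 with the normexp background (adjusted p 1.7e-05). In liver the normexp value was 1.89 (adjusted p 0.00519). Over their alternatives the adjusted p of Hk2 ran from 8.22e-06 to 0.0626 in liver and from 1.57e-17 to 0.00603 in kidney. These were bulk samples, in which fewer cells of a type and less RNA per cell cannot be told apart.

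Hk1, the hexokinase of most tissues, rose in liver from -0.64, -0.09 and -0.10 to 1.22, 1.89 and 1.07. The groups did not overlap, and aged liver 2 was again the highest. The change was 1.67 log2 (1.03 to 2.31, adjusted p 0.00860, 3.19-fold). A second, dimmer Hk1 probe, well above background on every array, went the other way in liver, by -0.81 log2. The mean of both Hk1 probes gave 0.43 log2 (adjusted p 0.107), spike-in scaling 1.13 (0.0942) and the t-test an adjusted p of 0.0505, in a range of 1.16e-05 to 0.107 over the alternatives. In kidney the Hk1 values were 4.14, 4.06 and 4.23 in the young and 3.59, 3.93 and 3.92 in the aged. The difference of -0.33 log2 was not called (adjusted p 0.0518), and its sign turned to 0.06 with quantile scaling and with the centred spike-ins. It was called lower when centred on the median gene (0.0195), with the normexp background (0.0403) and as the mean of both probes (0.045), in a range up to 0.911. In lung the Hk1 difference was 0.12 log2 (adjusted p 0.533), with the sign turned by the spike-ins (-0.18), and 0.02 without aged lung 2. In WAT it was 0.23 log2 (adjusted p 0.626), and -0.23 as the mean of both probes. Hk2 in WAT stood at 2.46, 2.68 and 2.32 in the young and 1.19, 2.16 and 1.85 in the aged. The WAT groups did not overlap, and Hk2 was not called (-0.75 log2, adjusted p 0.227). In lung the Hk2 groups overlapped (-0.21 log2, adjusted p 0.393).

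Phosphofructokinase is the committed step, and its liver and platelet forms are members. Pfkp, the platelet form, stood at -1.81, -1.31 and -1.49 in young liver and -0.60, 0.50 and -0.60 in aged liver. All aged livers were above all young ones. Pfkp rose in liver by 1.30 log2 (0.53 to 2.08, adjusted p 0.0296, 2.46-fold). The call was lost without young liver 1 (0.0946), 2 (0.0714) or 3 (0.0657), with the t-test (0.101) and with spike-in scaling (0.76 log2, 0.249), in a range of 5.7e-04 to 0.249. In kidney Pfkp was 1.95, 1.83 and 1.95 in the young, 2.22 and 2.42 in aged kidney 2 and 3, and just above the young in aged kidney 1. The kidney groups lay just apart and Pfkp was not called (0.30 log2, adjusted p 0.0704). It was called without aged kidney 1 (0.41 log2, 0.0248), with the normexp background (0.35 log2, 0.0160), with quantile scaling (0.0104) and with the centred spike-ins (0.69 log2, 0.00679), over a range of 0.00679 to 0.565. In lung Pfkp was lower without overlap at -0.28 log2 (-0.48 to -0.08, adjusted p 0.0985). In WAT the Pfkp groups overlapped (-0.02 log2, adjusted p 0.974), and the sign turned with the spike-ins (0.22) and within a leave-one-out range of -0.33 to 0.16, being positive without young WAT 2 or 3 or aged WAT 2.

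Pfkl, the liver form, changed in opposite directions in liver and kidney. In liver it stood at 1.40, 1.35 and 1.47 in the young and 2.36, 2.12 and 1.85 in the aged. The groups were well apart, with tight young values. Pfkl rose in liver by 0.70 log2 (0.28 to 1.13, adjusted p 0.0307, 1.63-fold). This call was lost without young liver 1 (0.0881), 2 (0.106) or 3 (0.0618) and without aged liver 1 (0.0762) or 2 (0.0629), with the t-test (0.0622), with spike-in scaling (0.16 log2, 0.808) and with the centred spike-ins (0.153), in a range of 0.00329 to 0.808. In kidney Pfkl was 1.41, 1.31 and 1.35 in the young and 0.88, 1.13 and 1.15 in the aged, without overlap. It fell there by 0.30 log2 (adjusted p 0.0376), with the sign turned to 0.08 by the centred spike-ins. The kidney call was lost without young kidney 1 (0.0992), 2 (0.0675) or 3 (0.0825) and without aged kidney 1 (0.0781) or 2 (0.0629). It was also lost with the normexp background (0.0673), quantile scaling (0.145), spike-in scaling (0.928), no filter (0.0549), all arrays in 1 fit (0.166) and the t-test (0.0526), in a range of 0.0127 to 0.928. In WAT Pfkl was lower without overlap at -0.74 log2 (adjusted p 0.187), and was called with all arrays in 1 fit (0.00471, in a range up to 0.605). In lung it was 0.19 log2 (adjusted p 0.398), with the sign turned by the spike-ins (-0.11), and 0.07 without aged lung 2.

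Aldoa codes for the aldolase of muscle and most other tissues. In kidney it stood at 7.96, 8.05 and 8.21 in the young and 7.39, 7.49 and 7.62 in the aged. The groups did not overlap. Aldoa fell in kidney by 0.57 log2 (95% interval -0.82 to -0.31, adjusted p 0.00421), 1.48-fold. The call was lost with quantile scaling (-0.00 log2, adjusted p 0.975), spike-in scaling (-0.37 log2, 0.703) and the centred spike-ins (-0.18 log2, 0.289), in a range of 0.00145 to 0.975. In liver Aldoa was higher without overlap, at 5.93, 6.20 and 6.12 in the young and 6.28, 6.63 and 6.60 in the aged. It was not called (0.42 log2, adjusted p 0.104), was called with the normexp background (0.0418), quantile scaling (0.0262) and all arrays in 1 fit (0.0354) in a range up to 0.869, and turned to -0.11 with the spike-ins. In lung the difference was 0.05 log2 (adjusted p 0.846), and its sign turned with 3 scalings and without aged lung 2 (-0.09), over a leave-one-out range up to 0.17. In WAT it was -0.06 log2 (adjusted p 0.895), 0.18 with the spike-ins and 0.07 without aged WAT 2.

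Pgk1 makes the first ATP of the pathway, and it fell in aged kidney. The young kidneys stood at 7.76, 7.82 and 7.96 and the aged at 6.53, 6.79 and 7.01. Every aged value was below every young one. Pgk1 fell in kidney by 1.07 log2 (-1.41 to -0.74, adjusted p 0.00109), 2.10-fold. With spike-in scaling the adjusted p was 0.187, the highest in a range from 8.49e-05, and the fall remained negative in each of the 5 scalings (-1.18 to -0.60). In liver Pgk1 was 8.19, 7.99 and 7.70 in the young and 7.16, 7.47 and 7.73 in the aged. Here the groups overlapped, and the difference of -0.51 log2 was not called (adjusted p 0.113). It was called with all arrays in 1 fit (0.0365, in a range up to 0.479). In lung Pgk1 differed by 0.16 log2 (adjusted p 0.491), turned to -0.14 by the spike-ins, and by 0.04 without aged lung 2. In WAT it differed by 0.23 log2 (adjusted p 0.607).

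Phosphoglycerate mutase has a widespread form, Pgam1, and a muscle form, Pgam2. Pgam1 was lower in aged kidney and, less firmly, in aged liver. The young kidneys stood at 6.07, 6.07 and 6.13 and the aged at 5.08, 5.25 and 5.35. The young values were nearly equal, and the groups were far apart for their spread. Pgam1 fell in kidney by 0.86 log2 (-1.09 to -0.63, adjusted p 6.42e-04), 1.82-fold. The change was negative in all 5 scalings (-0.97 to -0.36) and lost its call with the spike-ins (-0.66 log2, adjusted p 0.377, in a range from 2.32e-05). Young liver stood at 6.11, 6.26 and 5.83 and aged liver at 5.34, 5.44 and 5.61. These groups did not overlap, with young liver 3 and aged liver 4 the nearest. Pgam1 fell in liver by 0.61 log2 (-1.02 to -0.19, adjusted p 0.0439), 1.52-fold. The liver call was lost without any 1 array other than young liver 3: young liver 1 (-0.58 log2, 0.119) or 2 (-0.51, 0.152), aged liver 1 (-0.55, 0.109), 2 (-0.60, 0.0873) or 4 (-0.68, 0.0514). It was also lost with the t-test (0.0731), quantile scaling (-0.30, 0.144), the centred spike-ins (-0.51, 0.369) and the spike-ins (-1.15 log2, 0.091), in a range of 6.98e-04 to 0.369. In lung Pgam1 was 4.18, 4.16 and 4.21 in the young and 4.18, 4.44 and 4.25 in the aged. The lung values overlapped, and the difference was 0.10 log2 (-0.14 to 0.35, adjusted p 0.545), turned to -0.20 by the spike-ins, and 0.03 without aged lung 2. In WAT Pgam1 was 5.36, 5.46 and 5.34 in the young and 5.25, 5.01 and 5.31 in the aged. The WAT groups lay just apart, and Pgam1 was not called (-0.20 log2, -0.59 to 0.20, adjusted p 0.548), with the sign turned to 0.05 by the spike-ins. The second Pgam1 probe gave -0.71 log2 in liver, -0.91 in kidney, 0.16 in lung and -0.19 in WAT.

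Pgam2 had the largest fall of the 10 genes in kidney. It stood at 4.77, 4.67 and 4.79 in the young and 2.67, 2.94 and 3.01 in the aged. The groups were far apart and each was tight. Pgam2 fell in kidney by 1.87 log2 (-2.14 to -1.60, adjusted p 9.75e-05), 3.65-fold. The call held in all 5 scalings (-1.98 to -1.48) and was lost with all 24 arrays in 1 fit (adjusted p 0.159, in a range from 3.63e-06), where the spread of Pgam2 in the other tissues enters. In lung, WAT and young liver Pgam2 varied widely from array to array. In lung it was 2.10, 1.63 and 0.30 in the young and -1.64, 0.05 and 1.68 in the aged. These overlapped (-1.31 log2, -3.52 to 0.90, adjusted p 0.386), and with aged lung 1 and 2 left out the difference was 0.34, which rests on aged lung 3 alone. In WAT it was 0.88 in young WAT 1, the array with epididymis genes, -4.05 and -3.48 in the other young and -3.76, -1.77 and -3.76 in the aged. The WAT difference of -0.88 log2 was not called (-4.23 to 2.48, adjusted p 0.762) and turned to 0.67 without young WAT 1 and to 1.00 with both WAT arrays that stand apart left out. In liver it was -3.13, -0.42 and -3.23 in the young and -3.42, -3.59 and -3.74 in the aged, apart but not called (-1.32 log2, adjusted p 0.194; -0.40 without young liver 2). With the spike-ins the liver adjusted p was 0.00539, in a range up to 0.347.

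Pkm makes the pyruvate kinase of most tissues other than liver, and it rose in aged liver. The young livers stood at 1.55, 1.90 and 1.89 and the aged at 3.46, 4.46 and 3.10. All aged livers were well above the young ones, aged liver 2 most of all. Pkm rose in liver by 1.89 log2 (1.07 to 2.71, adjusted p 0.0124, 3.71-fold). The adjusted p was 0.0648 with the t-test and 0.0505 with the spike-ins (1.35 log2), in a range from 2.21e-05. In kidney Pkm was 4.43, 4.38 and 4.38 in the young and 4.12, 4.29 and 4.24 in the aged. The kidney difference of -0.18 log2 was not called (adjusted p 0.0902), was called lower when centred on the median gene (0.0243), and turned positive with quantile scaling (0.23 log2, called at 0.0447), the centred spike-ins (0.20 log2) and the spike-ins, in a range up to 0.991. In lung Pkm differed by 0.29 log2 (adjusted p 0.342), turned to -0.01 by the spike-ins and lowered to 0.10 without aged lung 2. In WAT it differed by 0.39 log2 (adjusted p 0.390).

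Ldha makes the lactate-forming subunit of lactate dehydrogenase. It was lower in aged kidney, at 7.84, 7.90 and 8.01 in the young and 6.92, 7.10 and 7.29 in the aged. No aged kidney reached a young one. Ldha fell in kidney by 0.81 log2 (-1.10 to -0.53, adjusted p 0.00161), 1.76-fold. The change was negative in all 5 scalings (-0.92 to -0.27) and lost its call with quantile scaling (0.0667) and the spike-ins (0.432), in a range from 1.88e-04. In liver Ldha was 8.37, 8.55 and 8.62 in the young and 8.34, 8.24 and 8.32 in the aged, which lay just apart. It was not called (-0.21 log2, adjusted p 0.305), and quantile scaling turned its sign (0.18). In lung the difference was -0.06 log2 (adjusted p 0.742), and 0.02 without aged lung 1 and 0.01 as the mean of both probes. In WAT it was -0.19 log2 (adjusted p 0.672), turned to 0.06 by the spike-ins.

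**Figure D2:**
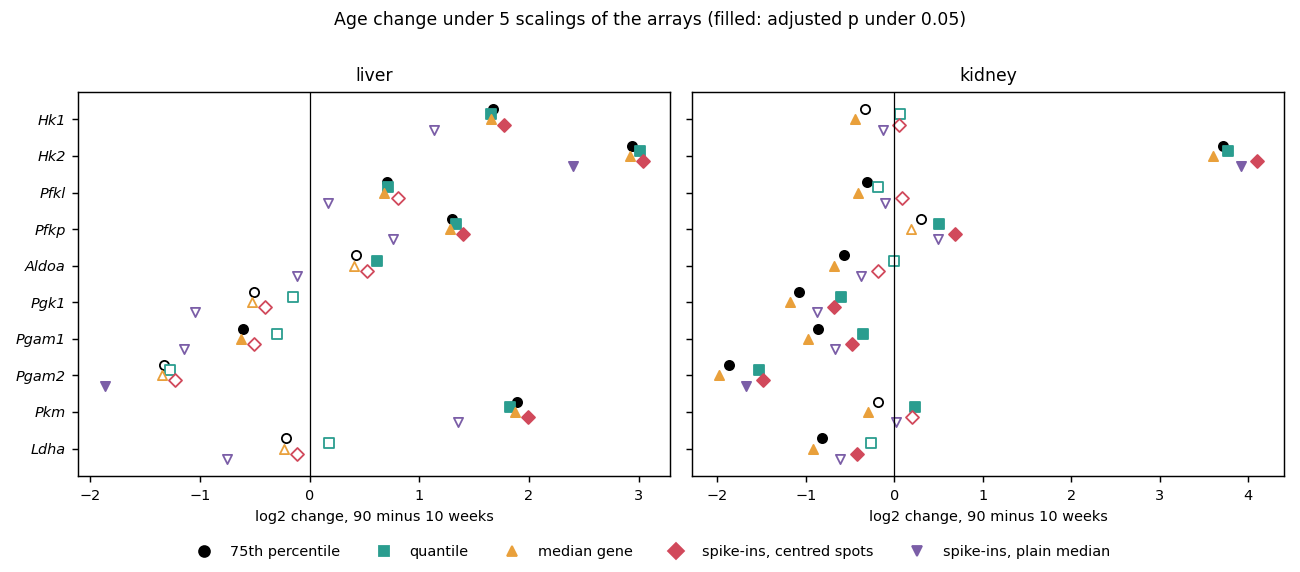
Age change of the 10 genes in liver and kidney under 5 scalings, of which the centred spike-ins were chosen after the data were seen. Filled marks have an adjusted p under 0.05. Hk2 was called higher in both tissues and Pgam2 lower in kidney under each scaling, and the sign turned for Pkm, Hk1 and Pfkl in kidney and for Ldha and Aldoa in liver.

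Taken over the scalings, kidney had 5 members that were negative each time, 2 positive each time and 3 of mixed sign. Liver had 3, 5 and 2. Lung had 6 members of mixed sign and WAT 4.

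Tissue levels differed for every member, as for most genes. In young mice the 4 tissues had unequal levels for all 10 genes (limma F-test, adjusted p from 5.29e-12 to 2.46e-04), as they had for 90.1% of the 34158 genes tested, and at 90W again for all 10 (1.23e-08 to 1.84e-04), against 84.1% of genes. With the spike-ins the young difference of Pfkl was no longer called (adjusted p 0.214). Between young tissues 9 members differed for liver and lung (background 72.4%), 7 for liver and kidney (54.8%), 9 for liver and WAT (66.5%), 7 for lung and kidney (62.7%), 7 for lung and WAT (52.4%) and 7 for kidney and WAT (55%). At 90W the counts were 9 (60.8%), 8 (53.6%), 8 (53.9%), 7 (51.4%), 7 (48.5%) and 6 (42.5%) in the same order.

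**Figure D3:**
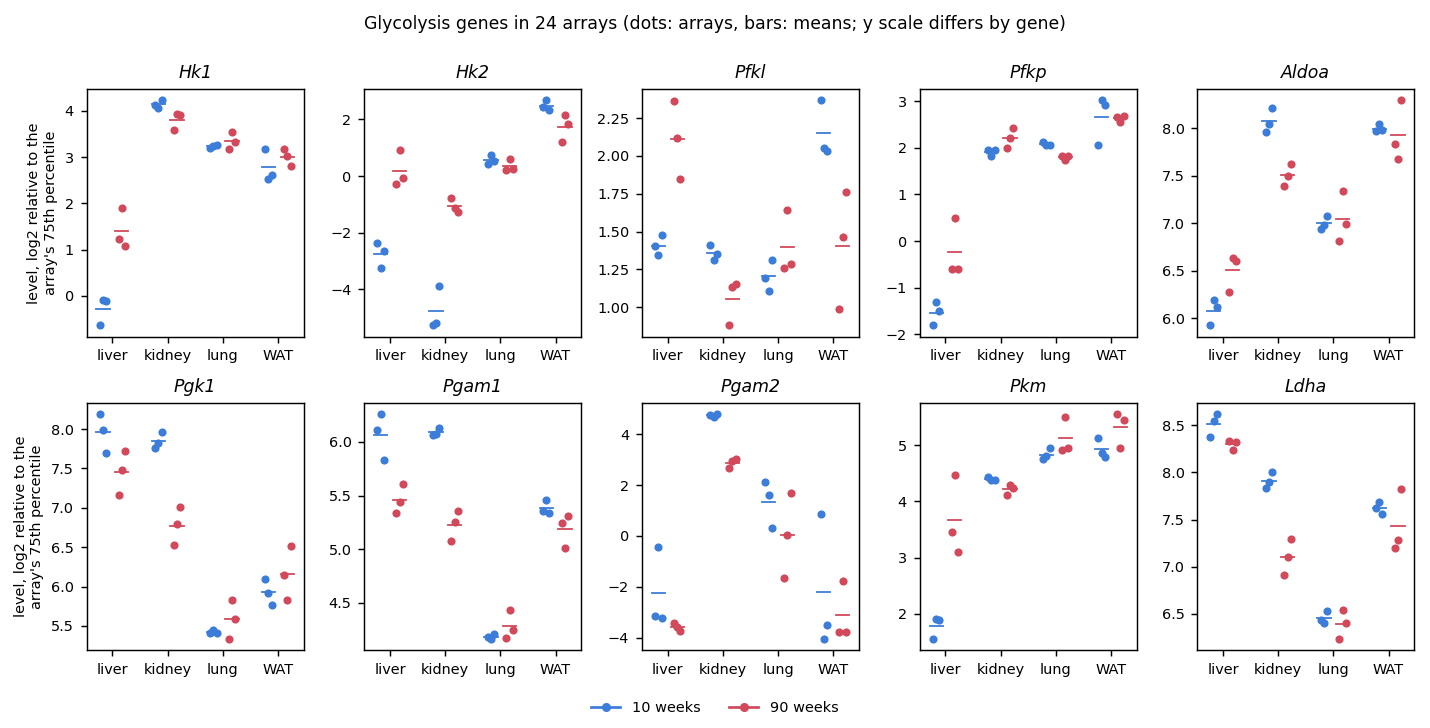
Level of each glycolysis gene on every array, by tissue and age, in log2 relative to the 75th percentile of the array. Young and aged mice are drawn apart. Tissue and slide cannot be told apart.

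The hexokinases had different homes. Young liver was lowest in Hk1, below WAT by a difference of 3.05 log2 (limma adjusted p 4.82e-10). Kidney was highest, above lung by 0.90 log2 (adjusted p 0.00101), a difference that quantile scaling (0.0611) and the spike-ins (0.481) left uncalled and the centred spike-ins turned to -0.07. Lung and WAT did not differ in Hk1 (0.46 log2, adjusted p 0.0732), although they did without aged liver 2 (0.0374) or young WAT 1 (0.66 log2, 0.0154) and with the centred spike-ins (1.45 log2). Hk2 was highest in WAT, above lung by 1.92 log2 (adjusted p 1.79e-04; 0.71 log2 and 0.219 with the spike-ins). Young lung exceeded liver by 3.32 log2 (adjusted p 1.19e-07). Young liver exceeded kidney in Hk2 by 2.03 log2 (adjusted p 7.95e-05). The size rests on young kidney values near background, with 2 of 3 arrays well above it. At 90W liver still exceeded kidney in Hk2 by 1.26 log2 (adjusted p 0.00584), but by 0.05 (0.93) with the spike-ins, 0.55 (0.13) with the centred spike-ins and 0.90 (0.0637) with the arrays that stand apart left out. Aged liver minus lung in Hk2 was -0.16 log2 and not called (adjusted p 0.708), was called with the spike-ins (-1.44, 0.016) and the centred spike-ins (-1.36, 5.86e-04), and changed sign without aged liver 1 (0.07).

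Among the next enzymes, liver stood low in Pfkp and Aldoa. Pfkp in young kidney exceeded liver by 3.45 log2 (adjusted p 1.43e-09). Young WAT and lung did not differ in Pfkp (0.58 log2, adjusted p 0.0604), did without aged liver 2 (0.0154) or young WAT 1 (0.89 log2, 0.00473), and changed sign with the spike-ins (-0.62) and the centred spike-ins (-0.41). The difference of Pfkp between lung and kidney was not called (0.16 log2, adjusted p 0.591), but was with the centred spike-ins (1.14 log2). Pfkl was highest in young WAT, above liver by 0.74 log2 (adjusted p 1.00e-03; 0.57 log2 and 0.219 with the spike-ins). The differences of Pfkl between liver and kidney (0.05 log2, adjusted p 0.83) and between kidney and lung (0.15 log2, 0.455) were not called. Both spike-in scalings turned their signs, and with the centred spike-ins kidney minus lung was called at -0.82 (adjusted p 0.00401). At 90W liver exceeded WAT in Pfkl by 0.70 log2 (adjusted p 0.00216), but by 0.09 (0.876) with the spike-ins and 0.39 (0.169) with the centred spike-ins. Aldoa stood high in young kidney and WAT, whose difference was not called (0.08 log2, adjusted p 0.704). With quantile scaling it was -0.25 (adjusted p 0.0510). WAT exceeded lung in Aldoa by 1.00 log2 (adjusted p 3.98e-05), with the sign turned by the spike-ins (-0.21) and 0.01 log2 with the centred spike-ins. Lung exceeded liver in Aldoa by 0.92 log2 (adjusted p 4.46e-05). At 90W kidney minus WAT in Aldoa was -0.43 log2 (adjusted p 0.0355), with the sign turned by the spike-ins (0.16) and quantile scaling (0.01) and -0.04 with the centred spike-ins. That call was lost without aged kidney 1 (-0.37, 0.115) or 2 (-0.42, 0.0802) or aged WAT 3 (-0.25, 0.21), and with the normexp background (0.062).

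At the chosen scaling Pgk1 and Pgam1 in the young stood highest in liver and kidney, then in WAT, and lowest in lung. The difference of Pgk1 between liver and kidney was not called (0.11 log2, adjusted p 0.637). With quantile scaling kidney was called higher (-0.77, adjusted p 8.69e-05). The sign also turned with both spike-in scalings, the normexp background (-0.05) and without young liver 1 (-0.00). Kidney exceeded WAT in Pgk1 by 1.92 log2 (adjusted p 9.99e-08). WAT exceeded lung by 0.50 log2 (adjusted p 0.0323). The spike-ins turned the sign (-0.71, 0.0613), and with the centred spike-ins lung was called higher (-0.49, 0.0377). WAT above lung was no longer called without young lung 1 (0.071), 2 (0.0611) or 3 (0.0733). The same held without young WAT 1 (0.105) or 2 (0.062) and with quantile scaling (0.21 log2, 0.21). Pgam1 in young kidney and liver was not called different (0.02 log2, -0.23 to 0.28, adjusted p 0.887). Quantile scaling called kidney higher by 0.47 log2 (1.99e-04). The mean of both probes gave -0.03, and the sign turned without young liver 3 (-0.10). Liver exceeded WAT in Pgam1 by 0.68 log2 (adjusted p 8.25e-05), which quantile scaling turned to -0.05 and the centred spike-ins lowered to 0.29 (0.177). WAT exceeded lung in Pgam1 by 1.20 log2 (adjusted p 2.62e-07), turned to -0.01 by the spike-ins and lowered to 0.21 (0.318) by the centred spike-ins. At 90W liver minus kidney in Pgam1 was 0.23 log2 and not called (adjusted p 0.119), and was called with the sign turned with quantile scaling (-0.42, 7.1e-04), the spike-ins (-0.97, 0.0107) and the centred spike-ins (-0.47, 0.0328). Aged kidney minus WAT in Pgam1 was 0.04 (adjusted p 0.826), 0.32 (0.0084) with quantile scaling and 0.63 (0.135) with the spike-ins, and changed sign without aged kidney 3 (-0.02) or aged WAT 2 (-0.05). Aged lung minus WAT in Pgam1 was -0.90 log2 (adjusted p 8.99e-06), but -0.24 (0.591) with the spike-ins and -0.02 (0.934) with the centred spike-ins. At 90W liver exceeded kidney in Pgk1 by 0.68 log2 (adjusted p 0.00542), with the sign turned by the spike-ins (-0.52), quantile scaling (-0.32) and the centred spike-ins (-0.02).

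Pgam2 was a kidney gene among these tissues. Young kidney exceeded lung by 3.40 log2 (adjusted p 0.00861). Lung exceeded WAT by 3.56 log2 (adjusted p 0.00807; 2.65 log2 and 0.0530 without young WAT 2). The difference of Pgam2 between WAT and liver was not called (0.04 log2, adjusted p 0.976). Its sign turned without young WAT 1 (-1.51), young liver 1 (-0.40) or 3 (-0.44), with the spike-ins (-0.13) and with the normexp background (-0.24). Aged lung minus kidney in Pgam2 was -2.84 log2 (adjusted p 0.0298), a call lost without aged lung 1 (-2.01, 0.149) or 2 (-2.85, 0.062), without aged kidney 1 (-2.95, 0.0538), 2 (-2.81, 0.0655) or 3 (-2.77, 0.0725), with the arrays that stand apart left out (-1.19, 0.331), and with the centred spike-ins (-2.35, 0.065). Pkm was lowest in liver, kidney being higher by 2.62 log2 (adjusted p 6.33e-08). The difference of Pkm between WAT and lung was not called (0.09 log2, adjusted p 0.775). Lung was called higher with the spike-ins (-1.12, 0.00839) and the centred spike-ins (-0.90, 0.00133). The sign also turned with quantile scaling (-0.22) and without young WAT 1 (-0.01). The difference of Pkm between lung and kidney was not called (0.44 log2, adjusted p 0.143). It was called without aged liver 2 (0.0394) and with the centred spike-ins (1.41 log2), quantile scaling (1.01) and the spike-ins (1.01). At 90W liver minus kidney in Pkm was -0.54 log2 and not called (adjusted p 0.0794), but was called without aged liver 2 (-0.94, 7.56e-04) and with the normexp background (0.032), quantile scaling (-0.93, 0.00398), the spike-ins (-1.74, 2.04e-04) and the centred spike-ins (-1.24, 8.4e-05). Ldha was highest in young liver, above kidney by 0.60 log2 (adjusted p 0.00169), with the sign turned by quantile scaling (-0.43, 0.0123) and the call lost with the centred spike-ins (0.18 log2, 0.485) and the spike-ins (0.13, 0.815). The difference of Ldha between kidney and WAT was not called (0.29 log2, adjusted p 0.0945). It was called without aged WAT 3 (0.0351) and with the spike-ins (0.93 log2, 0.035), and was -0.05 with quantile scaling. WAT exceeded lung in Ldha by 1.17 log2 (adjusted p 2.45e-06), turned to -0.04 by the spike-ins and lowered to 0.17 (0.465) by the centred spike-ins. At 90W Ldha in liver exceeded kidney by 1.20 log2 (adjusted p 1.34e-06), but by 0.01 with quantile scaling (0.956), 0.50 with the centred spike-ins (0.0453) and -0.01 with the spike-ins (0.99).

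The age change itself differed between tissues for 9 of the 10 genes, against 31.2% of all genes (10671 of 34158). Pgam2 was the exception (limma F-test, adjusted p 0.945), and its values spread widely in lung, WAT and liver. Spike-in scaling gave 1 member (11.2% of all genes) and the centred spike-ins 5 (17.1%). Ldha, the weakest (adjusted p 0.0301), was lost without young lung 2 (0.0519), young kidney 2 (0.0630) or 3 (0.0850), or aged kidney 1 (0.104) or 2 (0.0681). Between liver and lung the change differed for 5 members (12.5% of all genes), between liver and kidney for 4 (8.63%), between liver and WAT for 5 (14.7%), between lung and kidney for 4 (18.8%), between lung and WAT for 1 (2.89%) and between kidney and WAT for 4 (20.5%). In the same order the spike-ins gave 0 (0.632%), 0 (5.56%), 2 (11.1%), 1 (5.9%), 0 (1.43%) and 1 (3.16%), and the centred spike-ins 4 (5.31%), 2 (6.33%), 5 (5.89%), 1 (11.5%), 0 (1.63%) and 2 (10.2%). Quantile scaling gave 2 (18.2%) between kidney and WAT. The single member between lung and WAT was Pfkl (0.94 log2, adjusted p 0.0468), a call lost with the arrays that stand apart left out (0.101) and without any 1 array (0.0505 to 0.126) other than aged liver 1 or 4, young WAT 2, or aged WAT 2 or 3. Ldha between kidney and WAT (-0.63 log2, adjusted p 0.0368) was lost without young kidney 2 (0.0645) or 3 (0.0839), aged kidney 1 (0.104) or 2 (0.0688), young WAT 3 (0.0746) or aged WAT 3 (0.0817), with the arrays that stand apart left out (0.0737) and as the mean of the probes (-0.46, 0.187), and its sign turned with quantile scaling (0.18, 0.565).

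For Hk2 the rise in liver exceeded the change in WAT by 3.70 log2 (adjusted p 2.19e-04). The rise in kidney exceeded it by 4.47 log2 (1.9e-05). The kidney size rests on young kidney values near background, and the kidney rise was smaller with the normexp background. The difference between the rises of Hk2 in liver and kidney was not called (-0.78 log2, adjusted p 0.402). Liver differed from lung in the change of Hk2 by 3.15 log2 (adjusted p 8.28e-04; 0.0551 with the spike-ins). Pkm set liver apart from each other tissue, with a change above that in kidney by 2.07 log2 (adjusted p 0.00112), above that in lung by 1.60 (0.00727) and above that in WAT (0.00995). With the spike-ins these were 1.34, 1.36 and 0.72 log2 and not called. The change of Pkm was not called different between lung and WAT, where the sign turned without aged WAT 1 (0.01). Hk1 was called alike, its change in liver exceeding that in lung by 1.55 log2 (adjusted p 0.00284). With the spike-ins that difference was 1.31 (0.267). As the mean of both probes liver was not called apart from lung (0.43, 0.299), kidney (0.72, 0.0926) or WAT (0.66, 0.0883). For Pgam1 kidney stood apart from lung, whose change was greater by 0.96 log2 (adjusted p 0.00103), and from WAT (-0.67 log2, 0.0122; -0.10 and 0.616 with quantile scaling). Liver differed from lung in the change of Pgam1 by -0.71 log2 (adjusted p 0.0126; -0.66 and 0.0756 with the arrays that stand apart left out). With the centred spike-ins these 3 Pgam1 values were 0.48, -0.29 and -0.51 and not called, and with the spike-ins they were not called. The difference between liver and kidney in the change of Pgam1 was not called (0.26 log2, adjusted p 0.433). Nor was that between liver and WAT (-0.41 log2, 0.118), though it was called without young liver 3 (-0.53, 0.0438). The fall of Pgk1 in kidney was larger than the change in WAT by a difference of -1.31 log2 (adjusted p 0.00268; -0.74 with quantile scaling; 0.123 with the spike-ins). The change of Aldoa was greater in liver than in kidney by 0.99 log2 (adjusted p 0.00808), but by 0.26 (0.707) with the spike-ins, 0.71 (0.106) with the centred spike-ins and 0.62 with quantile scaling.

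Over the 24 arrays some members followed each other. Pgam1 ran with Pgk1 (Pearson r 0.894) and with Ldha (0.899), and Pgk1 with Ldha (0.852). Pfkp ran with Hk1 (0.873), with Pkm (0.904) and with Aldoa (0.854). The most opposed pairs were Hk2 and Pgk1 (-0.741) and Pkm and Pgk1 (-0.717). Among 19041 genes the closest to Pgam1 were Phb (0.988), Ndufa4 (0.981), Ndufs3 (0.981), Atp5c1 (0.980) and Afg3l1 (0.979), most of which code for mitochondrial proteins. The closest to Pgam2 were Trim63 (0.970), Wdr72 (0.967), Atp6v1b1 (0.960), Slc35f3 (0.945) and Frem2 (0.945). These correlations span tissues and ages together and were not tested. They were computed at the chosen scaling only, and differences between tissues depend on the scaling. Second probes of other members gave 1.95 log2 for Pkm in liver, 1.47 for Pfkp in liver, -0.87 for Ldha in kidney and -0.81 for Hk1 in liver.

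The remaining enzymes of the pathway are given next, beside the shares of all genes called in either direction: 27.4% in liver, 5.57% in lung, 63.2% in kidney and 2.56% in WAT. Of the other glycolysis enzymes, 20 were tested in liver, where 3 rose and 3 fell, and their median change was -0.14 log2 (-0.20 for all genes). In kidney 3 of 20 rose and 11 fell, with a median of -0.58 (-0.23 for all genes). In lung limma called 0 of 20 (median 0.07, beside -0.08), and in WAT 1 of 20 rose (median -0.52, beside -0.05). In liver Hk3, the hexokinase of blood cells, rose by 1.62 log2 (adjusted p 0.0317; called under 12 of 18 alternatives, 0.00254 to 0.112; lost without any 1 young liver, 0.0775 to 0.0931). Liver Gapdhs rose by 2.26 log2 (adjusted p 0.00924; called under 16 of 18 alternatives, 2.97e-04 to 0.21). Gapdh fell in liver, with -0.68 log2 (adjusted p 0.0398; called under 7 of 18 alternatives, 0.00222 to 0.342; lost without any 1 array other than aged liver 4, 0.0626 to 0.131). In kidney Hk3 rose by 2.44 log2 (adjusted p 3.08e-04). The neuronal enolase Eno2 also rose there by 1.77 log2 (adjusted p 3.93e-04). The muscle phosphofructokinase Pfkm fell in kidney, with -1.12 log2 (adjusted p 4.07e-04; called under 16 of 17 alternatives, 5.02e-05 to 0.156). Gapdh in kidney changed by -0.88 log2 (adjusted p 8.52e-04; called under 16 of 17 alternatives, 1.81e-04 to 0.362). In WAT the riser was Hk3 with 3.67 log2 (adjusted p 0.02; called under 11 of 18 alternatives, 3.22e-05 to 0.144), lost without young WAT 2 (0.057) or 3 (0.0673) or aged WAT 1 (0.0652) or 3 (0.075).

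The pathways that feed or drain glycolysis had most of their calls in kidney, where most genes of any kind were called (63.2%, against 27.4% in liver, 5.57% in lung and 2.56% in WAT). Of the fructose-2,6-bisphosphate enzymes, Pfkfb4 rose in liver by 2.66 log2 (adjusted p 0.00974; called under 16 of 18 alternatives, 1.14e-05 to 0.0608), and in kidney 2 of 5 rose and 2 fell, the firmest being Pfkfb2 at -0.67 log2 (adjusted p 7.41e-04; called under 15 of 17 alternatives, 3.49e-04 to 0.598). None of these was called in lung or WAT. Of the glucose and lactate transporters, 2 of 12 rose in liver, 3 of 13 fell in lung, 2 of 14 rose and 10 fell in kidney, and limma called 0 of 13 in WAT. The lactate exporter Slc16a3 rose in kidney by 2.07 log2 (adjusted p 1.87e-04). In liver it rose by 2.12 log2 (adjusted p 0.0396; called under 12 of 18 alternatives, 0.00119 to 0.132; lost without any 1 young liver, 0.08 to 0.108). Kidney Slc16a7 fell, with -2.10 log2 (adjusted p 3.43e-04). Lung Slc5a1 fell, with -1.03 log2 (adjusted p 0.0132; called under 11 of 18 alternatives, 0.00757 to 0.159; lost without any 1 young lung, 0.0575 to 0.066). Of the gluconeogenesis genes 1 of 8 fell in liver, 2 rose and 6 fell in kidney, and 0 were called in lung or WAT. Pcx, which makes oxaloacetate from pyruvate, fell in kidney with -1.38 log2 (adjusted p 3.97e-04). In liver Pcx changed by -0.50 log2 (adjusted p 0.0436; called under 6 of 18 alternatives, 0.0306 to 0.48; lost without any 1 array, 0.0551 to 0.131).

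The pyruvate dehydrogenase complex and its kinases, which send pyruvate to the mitochondria, gave 2 of 11 higher and 3 lower in liver, 1 lower in lung, 1 higher and 9 lower in kidney and 0 in WAT. The shares of all genes called in either direction were 27.4% in liver, 5.57% in lung, 63.2% in kidney and 2.56% in WAT. The subunit Dld fell in kidney with -1.27 log2 (adjusted p 5.30e-04; called under 16 of 17 alternatives, 3.75e-05 to 0.0778). Pdk3 rose in liver by 2.32 log2 (adjusted p 0.00685), with 1 of 3 young livers above background and 0.63 log2 with the normexp background. Of the pentose phosphate genes 1 of 8 rose and 1 fell in liver, 1 rose and 4 fell in kidney, and 0 were called in lung or WAT. G6pdx, which opens that pathway, rose in liver by 1.89 log2 (adjusted p 0.00731; called under 16 of 18 alternatives, 6.16e-06 to 0.0554). Of the glycogen genes 3 of 17 rose and 2 fell in liver, 2 fell in lung, 3 rose and 12 fell in kidney, and 0 were called in WAT. Gys2 fell in kidney with -2.33 log2 (adjusted p 1.90e-04; called under 16 of 17 alternatives, 3.39e-06 to 0.126). Pygb rose in liver by 1.56 log2 (adjusted p 0.00537; called under 17 of 18 alternatives, 5.84e-04 to 0.129).

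Of the hypoxia-inducible factors and their hydroxylases, 1 of 9 rose and 1 fell in liver, 1 of 10 rose and 2 fell in kidney, and 0 were called in lung or WAT. Egln1 fell in kidney with -0.75 log2 (adjusted p 4.62e-04; called under 15 of 17 alternatives, 4.04e-05 to 0.507). Of all genes, 10.6% rose and 16.8% fell in liver, and 20.7% rose and 42.5% fell in kidney (63.2% together). In lung the shares were 2.7% and 2.86%, and in WAT 1.99% and 0.566%. Of other hypoxia targets 6 of 13 rose and 1 fell in liver, 1 of 13 fell in lung, 3 of 15 rose and 7 fell in kidney, and 1 of 13 rose in WAT. In liver the adjusted t-test called 3 of the 13, where limma called 7. It called 1 of 20 other glycolysis enzymes (6 by limma), 1 of 17 glycogen genes (5) and 1 of 11 pyruvate dehydrogenase genes (5). It called 0 of 12 transporters (2), while gluconeogenesis (1) and pentose phosphate (2) kept their counts. Adm rose in liver by 2.12 log2 (adjusted p 0.00146). Car9 fell in kidney with -1.24 log2 (adjusted p 0.00265; called under 15 of 17 alternatives, 2.73e-04 to 0.106). In WAT Hmox1 rose by 2.96 log2 (adjusted p 0.0403; called under 8 of 18 alternatives, 1.67e-04 to 0.168), a call lost without any 1 WAT array (0.053 to 0.150). Chek1, which codes for the kinase that PGAM1 binds, was well above background on 0 of 3 young and 3 of 3 aged kidney arrays. Its change there depends on the background treatment, at 1.69 log2 with the local background and -0.04 with normexp, and no rise is claimed. Pgam5, a mitochondrial phosphatase of the mutase family, fell in kidney with -0.35 log2 (adjusted p 0.0171; 0.04 log2 with the centred spike-ins; 0.053 without aged kidney 1).

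Where limma called 0 genes of a list, the unadjusted p was under 0.05 in lung for 5 of the other glycolysis enzymes (6 by the t-test), 2 fructose-2,6-bisphosphate enzymes (0), 1 gluconeogenesis gene (2), 0 pentose phosphate genes (0) and 3 hypoxia-inducible factor genes (3). In WAT it was so for 3 fructose-2,6-bisphosphate enzymes (2), 5 transporters (4), 3 gluconeogenesis genes (2), 2 pyruvate dehydrogenase genes (1), 2 pentose phosphate genes (3), 6 glycogen genes (6) and 0 hypoxia-inducible factor genes (0). After adjustment the t-test called 0 in each of these. Of all genes, 8148 of 30312 in lung and 5780 of 30042 in WAT had an unadjusted limma p under 0.05.

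Markers of cell types were read beside these results. Their counts of called genes stand against shares of all genes of 27.4% in liver, 5.57% in lung, 63.2% in kidney and 2.56% in WAT. Macrophage genes rose in aged liver, all 10 of them, from summed levels of 76.8, 84.9 and 63.3 to 316, 318 and 257, with Csf1r the most abundant. Every aged liver exceeded every young one in this sum, and in Pkm, Hk1, Hk2, Pfkl, Pfkp and Aldoa. Of all genes, 16.9% were higher in aged liver without overlap. The second Hk1 probe went the other way (-0.81 log2). Whether more macrophages account for the rise of Pkm was not tested. In aged liver 2 the neutrophil sum of 1377 went with the highest Pkm, Hk1, Hk2, Pfkp and Aldoa of the livers. Pfkl was highest in aged liver 1. The hepatocyte sum was 6669, 6042 and 6015 in young liver and 3984, 4714 and 4594 in aged liver, with 0 of 8 genes higher and 2 lower. Serpina1a and Ahsg were its most abundant genes.

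In kidney the macrophage sum went from 24.3, 26.5 and 27.7 to 170, 140 and 117, with 10 of 10 genes higher. Hk2 also rose there, while Pkm (-0.18 log2) and Hk1 (-0.33 log2) were not called. Lymphocyte genes went from 8.78, 7.26 and 8.18 to 90.6, 63.9 and 56.5, with 7 of 8 higher and 1 lower. The kidney epithelium sum went down from 1137, 1188 and 1368 to 519, 682 and 807, with 1 of 8 genes higher and 5 lower, where 20.7% and 42.5% of all genes were, and Kap the most abundant. Of the aged kidneys, replicate 1 had the lowest epithelial sum and the lowest level of every member except Hk2, which was highest there. This includes Pfkp, which was not lower with age in kidney. Whether fewer epithelial cells account for the lower Pgam1 was not tested. The skeletal muscle sum in kidney was 10.5, 9.19 and 9.12 in the young and 1.88, 1.92 and 1.60 in the aged. Limma called 2 of 6 genes higher and 2 lower. Pvalb was the most abundant in the young, and Tnni2 or Pvalb in the aged. Ckm, Mb, Myh1 and Myh4 were not above background. Pvalb is also known as a gene of the distal tubule of the kidney.

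In lung the cardiac sum was 346, 287 and 115 in the young and 18.8, 90.9 and 209 in the aged, with Myh6 among the most abundant genes. Pgam2, a gene of heart and skeletal muscle, had the same order of arrays within each age. Whether carried-over heart tissue accounts for the spread of Pgam2 was not tested. The lung epithelium sum was 2060, 2005 and 2107 in the young and 1829, 2628 and 1869 in the aged. Other cell types moved more in lung. The adipocyte sum was 110, 120 and 71.0 in young lung and 10.2, 9.05 and 23.4 in aged lung, with 3 of 7 genes lower. The red blood cell sum was 83.4, 409 and 448 in young lung and 1000, 1637 and 1130 in aged lung, with 1 of 5 genes higher and Hba-a1 the most abundant. After adjustment the t-test called 0 of the 7 adipocyte genes and 0 of the 5 red blood cell genes in lung. The part of these cell types in the lung results was not tested. In WAT the adipocyte sum was 1157, 1640 and 1706 in the young and 965, 1237 and 1605 in the aged, with 0 of 7 genes called (0 at unadjusted p under 0.05 by limma or the t-test), and the macrophage sum was 60.4, 191 and 149 in the young and 784, 367 and 574 in the aged. Dividing-cell genes were higher by limma in aged kidney for 6 of 6 and in liver and lung for 5 of 6. After adjustment the t-test called 6 of 6 in kidney and 0 of 6 in liver and in lung. In WAT limma called 0 of 6 (5 at unadjusted p under 0.05, 1 by the t-test). Of all genes in WAT, 5780 of 30042 had an unadjusted limma p under 0.05.

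**Figure D4:**
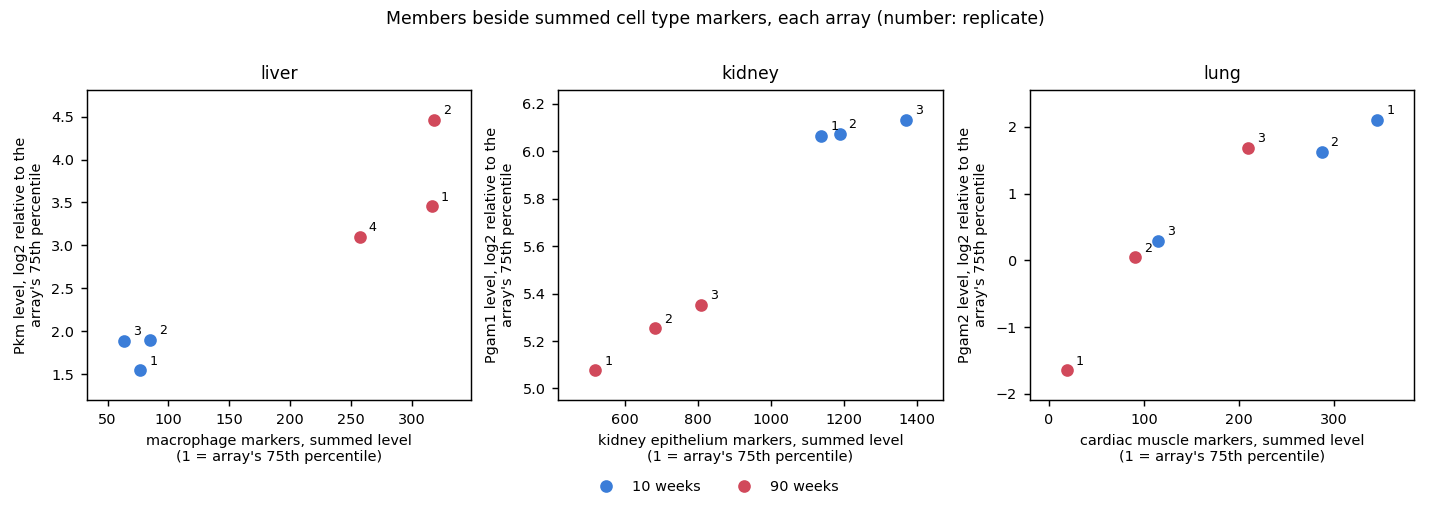
Members beside marker sums on each array: Pkm and macrophage genes in liver, Pgam1 and kidney epithelium genes in kidney, Pgam2 and cardiac genes in lung. Numbers are replicate numbers. The pairs were chosen after their values had been seen, and what accounts for them was not tested. With aged lung 1 and 2 left out the Pgam2 difference in lung is positive, but it then rests on 1 aged lung.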

How the data were processed

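The intensity values are the processed signals that Agilent Feature Extraction 11.0.1.1 made, per the file headers, by subtracting the local background from the Cy3 signal of each spot, with no normalization between arrays. The authors extracted total RNA with an RNeasy kit and labelled cRNA with a Quick Amp kit. The methods name a human kit, whereas the headers name a mouse design, which was followed.

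Spots marked as outliers were left out (1841 over the arrays), spots of a probe were averaged in log2, and each array was scaled to its 75th percentile. Of 56605 probes, 32994 matched a RefSeq symbol (GRCm38.p6). A gene is represented by its brightest probe. A gene was tested in a tissue where its probe was well above background on at least 3 of 6 arrays. Age was fitted within each tissue with limma, and tissue levels and their change with age over all 24 arrays, with Benjamini-Hochberg adjustment over all genes tested. R 4.3.3 and limma 3.58.1 were used. On simulated data the code recovered 0 (WAT) to 52 (kidney) of 100 genes changed by 1 log2, and 45 to 93 of 100 changed by 2 log2. Replicates correlated at 0.942 to 0.995.

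Alternatives were the normexp background, quantile, spike-in and median-gene scaling, no filter, other probe choices, all arrays in 1 fit, a paired fit, the Student t-test and each array left out in turn. Centred spike-in scaling and leaving out the arrays that stand apart were added after the data were seen. The genes and the gene lists, which cover related pathways and cell markers, were chosen with earlier results of these data known. Named list genes are the 3 largest called changes of a list in a tissue and a set of isozymes, not all of which are reported.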

Additional observations from a re-analysis of the deposited data

Results flagged for a closer look

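The size of the age change differed between the 4 tissues for 9 of the 10 glycolysis genes (limma F-test over all 24 arrays), against 31.2% of all genes. Hk1 had an adjusted p of 4.86e-04. Hk2 had an adjusted p of 1.17e-05. Pfkl had an adjusted p of 0.00147. Pfkp had an adjusted p of 0.011. Aldoa had an adjusted p of 0.0158. Pgk1 had an adjusted p of 0.00316. Pgam1 had an adjusted p of 0.00191. Pkm had an adjusted p of 0.00163. Ldha had an adjusted p of 0.0301. Scaling to the spike-in spots gave 1 call among the 10 (11.2% of all genes) and the centred spike-in spots 5 (17.1%). What accounts for the differences was not tested.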

How the results depend on the processing

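Of 200 tested results, 53 kept their side of the threshold and their sign under every alternative, and 51 changed sign under at least 1. Values below are those of the alternative, with the value of the chosen settings in brackets. Counts are numbers of genes called, others are log2 differences.

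With the Student t-test: liver members higher 1 (5), liver members lower 0 (1), liver genes higher 1328 (2947), liver genes lower 1765 (4685), lung genes higher 91 (819), lung genes lower 120 (868), WAT genes higher 1 (598), WAT genes lower 0 (170).

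With all 24 arrays in 1 fit: liver members lower 2 (1), liver genes lower 7773 (4685), lung genes lower 382 (868), WAT members lower 1 (0), WAT genes higher 3249 (598), WAT genes lower 3115 (170).

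With centred spike-in spots (added after the data were seen): liver members lower 0 (1), liver genes lower 971 (4685), lung genes lower 543 (868), Aldoa in lung -0.0411 (0.05), kidney members higher 2 (1), kidney genes lower 4377 (13374), Pkm in kidney 0.20 (-0.18), Pfkl in kidney 0.0846 (-0.30), Pgls in kidney 0.00797 (-0.38), Hk1 in kidney 0.0594 (-0.33), Pgam5 in kidney 0.0408 (-0.35), members whose age change differs by tissue 5 (9), genes whose age change differs by tissue 5833 (10671), Hk1 10W kidney minus lung -0.0700 (0.90), Pfkl 10W liver minus kidney -0.37 (0.05), Pfkl 10W kidney minus lung -0.82 (0.15), Pfkp 10W WAT minus lung -0.41 (0.58), Pgk1 10W liver minus kidney -0.30 (0.11), Pgk1 10W WAT minus lung -0.49 (0.50), Pkm 10W WAT minus lung -0.90 (0.09), Pgam1 change liver minus kidney -0.0307 (0.26), Pkm change lung minus kidney -0.0103 (0.47).

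With centring on the median gene: Pklr in kidney -0.0879 (0.02).

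With the libraries that stand apart left out (added after the data were seen), where each lung value rests on aged lung 3 as the only aged array: liver members lower 0 (1), liver genes lower 2651 (4685), Aldoa in lung -0.00563 (0.05), Pgam2 in lung 0.34 (-1.31), Eno3 in lung 0.62 (-0.26), WAT genes higher 346 (598), WAT genes lower 109 (170), Pgam2 in WAT 1.00 (-0.88), Pgam2 10W WAT minus liver -1.51 (0.04), Pkm 10W WAT minus lung -0.00678 (0.09).

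With the mean of the probes of a gene: Ldha in lung 0.0134 (-0.06), Pfkfb4 in kidney -0.40 (0.58), Hk1 in WAT -0.23 (0.23), Pgam1 10W kidney minus liver -0.0268 (0.02).

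With no filter on dim probes: liver genes lower 12859 (4685), lung genes higher 302 (819), lung genes lower 132 (868), WAT genes lower 75 (170).

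With normexp background correction: liver genes lower 7475 (4685), lung genes lower 496 (868), kidney members higher 2 (1), Chek1 in kidney -0.0405 (1.69), Pgam2 10W WAT minus liver -0.24 (0.04), Pgk1 10W liver minus kidney -0.0465 (0.11).

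With quantile normalization: liver members lower 0 (1), Ldha in liver 0.18 (-0.21), Aldoa in lung -0.0533 (0.05), kidney members higher 3 (1), kidney members lower 3 (6), Pkm in kidney 0.23 (-0.18), Pgls in kidney 0.13 (-0.38), Pklr in kidney -0.0403 (0.02), Hk1 in kidney 0.0648 (-0.33), Aldoa 10W kidney minus WAT -0.25 (0.08), Ldha 10W kidney minus WAT -0.0484 (0.29), Ldha 10W liver minus kidney -0.43 (0.60), Pgam1 10W liver minus WAT -0.0538 (0.68), Pgk1 10W liver minus kidney -0.77 (0.11), Pkm 10W WAT minus lung -0.22 (0.09).

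With scaling to spike-in spots: liver members higher 1 (5), liver genes higher 1072 (2947), Ldhb in liver -0.11 (0.43), Aldoa in liver -0.11 (0.42), Eno3 in liver -0.30 (0.24), lung genes lower 3562 (868), Pkm in lung -0.0105 (0.29), Pgam1 in lung -0.20 (0.10), Pfkl in lung -0.11 (0.19), Aldoa in lung -0.25 (0.05), Hk1 in lung -0.18 (0.12), Pgk1 in lung -0.14 (0.16), kidney members lower 1 (6), kidney genes higher 3876 (6510), kidney genes lower 1164 (13374), Pkm in kidney 0.015 (-0.18), WAT genes higher 1121 (598), WAT genes lower 77 (170), Pgam1 in WAT 0.0474 (-0.20), Ldha in WAT 0.0568 (-0.19), Aldoa in WAT 0.18 (-0.06), Gapdh in WAT 0.0731 (-0.17), Pfkp in WAT 0.22 (-0.02), Eno1 in WAT 0.11 (-0.13), members whose age change differs by tissue 1 (9), genes whose age change differs by tissue 3821 (10671), Aldoa 10W WAT minus lung -0.21 (1.00), Ldha 10W WAT minus lung -0.043 (1.17), Pfkl 10W liver minus kidney -0.42 (0.05), Pfkl 10W kidney minus lung -0.42 (0.15), Pfkp 10W WAT minus lung -0.62 (0.58), Pgam1 10W WAT minus lung -0.00944 (1.20), Pgam2 10W WAT minus liver -0.13 (0.04), Pgk1 10W liver minus kidney -0.35 (0.11), Pgk1 10W WAT minus lung -0.71 (0.50), Pkm 10W WAT minus lung -1.12 (0.09), Hk2 change lung minus WAT -1.92e-05 (0.54), Pgam1 change liver minus kidney -0.48 (0.26), Pgam1 change lung minus WAT -0.24 (0.30), Pkm change lung minus kidney -0.0255 (0.47).

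With the replicate block, which takes the replicate number as a pairing of young and aged mice: liver members higher 2 (5), liver members lower 0 (1), liver genes higher 1076 (2947), liver genes lower 620 (4685), lung genes higher 1 (819), lung genes lower 0 (868), WAT genes higher 323 (598), WAT genes lower 43 (170). The numbers carry no pairing that the arrays show: the correlation of residuals between arrays of the same number ran from -0.12 to 0.19 within tissues, and the consensus correlation of the block over tissues was 0.0167.

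Leaving out 1 array at a time gave these lowest and highest values: liver members higher 3 to 5, liver members lower 0 to 1, liver genes higher 1508 to 2730, liver genes lower 977 to 4375, lung genes higher 1 to 1092, lung genes lower 1 to 900, Ldha in lung -0.14 to 0.0173, Aldoa in lung -0.0938 to 0.17, Eno3 in lung -0.69 to 0.0302, kidney members higher 1 to 2, Pklr in kidney -0.0262 to 0.0813, WAT genes higher 206 to 482, WAT genes lower 25 to 120, Aldoa in WAT -0.24 to 0.0658, Pgam2 in WAT -1.79 to 0.67, Eno3 in WAT -0.0396 to 0.15, Pfkp in WAT -0.33 to 0.16, Pgam1 10W kidney minus liver -0.0954 to 0.12, Pgam2 10W WAT minus liver -1.51 to 0.96, Pgk1 10W liver minus kidney -0.00147 to 0.24, Pkm 10W WAT minus lung -0.00678 to 0.16, Pkm change lung minus WAT -0.29 to 0.0119.

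With 3 mice per group a single array weighs heavily, and the liver, lung and WAT counts move most. The scaling decides the direction of small kidney changes. Tissue and slide cannot be told apart, so differences between tissues depend on the scaling as well. The labels do not say whether 1 mouse gave several tissues. Between tissues, arrays of the same number had a median residual correlation of 0.0358 at 10W and -0.00018 at 90W, beside 0.0020 and -0.0133 for arrays of different numbers.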

Other observations

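Further marker sums also differed between arrays. Red blood cell genes summed to 780, 20.6 and 274 in young kidney and 111, 44.8 and 54.0 in aged kidney, with Hba-a1 among them. Lymphocyte genes summed to 6.03, 8.89 and 9.70 in young WAT and 53.2, 67.8 and 67.9 in aged WAT. Limma called 5 of the 8 higher there, against 1.99% of all genes. After adjustment the t-test called 0 of the 8 (1 of 30042 genes). What accounts for these values was not tested.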
